A study of Mus musculus with 6 samples.

Results

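The angiopoietin, Tie and apelin genes encode 2 secreted ligand systems of blood vessels and their receptors. The set was fixed by name as Angpt1, Angpt2, Tek, Tie1, Apln and Aplnr. Each was read from the probe set that the platform annotation assigns to that symbol alone, and all 6 of the 6 listed genes were measured, out of 30141 genes on the arrays. Each had 1 such probe set.

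ID8 cells derive from the surface epithelium of the mouse ovary, and ID8-VEGF cells produce added vascular endothelial growth factor. The cells were placed under the ovarian bursa, the membrane around the ovary, and late-stage tumours were collected from 3 mice, named C1M3, C1M5 and C2M3. Each mouse gave 1 primary and 1 metastatic tumour, which made 3 arrays for each tissue, all of ID8-VEGF tumours and without a normal tissue or an untransfected control. The site of the metastases, the strain and age of the mice and any treatment are not given in the labels, and the vessels, being host cells, come mixed with tumour cells in each RNA. For the primary tumour of C2M3 the title and donor label name that mouse while the source name reads C2M2, and the donor label was followed. Values listed in threes below are log2 intensities in the order C1M3, C1M5, C2M3.

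Angiopoietins act on Tek, also called Tie2, a receptor tyrosine kinase of endothelial cells that a subset of macrophages also carries. Angpt1, made largely by pericytes and other mesenchymal cells, activates Tek and keeps vessels quiet, whereas Angpt2, released by endothelial cells, can block Tek and loosens vessels so that they can sprout or regress. Tie1 is a related receptor with no established high-affinity angiopoietin ligand that forms complexes with Tek. Apelin, encoded by Apln, is a peptide made by sprouting tip cells, fat cells and some tumour cells, and its G protein-coupled receptor Aplnr is found on venous and growing endothelium.

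Sequence upstream of the start was held for 3 of the 6 genes in the RefSeq promoter table of assembly GRCm38.p6, namely Tek, Tie1 and Apln. The 250 bases before the start of Tie1 and of Apln are shown, a choice made after the values were seen. Relative to the blood endothelium list described further on, Tie1 moved least of the 6 genes across tumours and Apln most. A link between the marked motifs and expression was not tested. Capitals mark GGAA, the core bound by ETS factors, on either strand (TTCC when read on the printed strand). The Tie1 window is chr4:118489850-118490099 and the Apln window is chrX:48034854-48035103, both on the minus strand and printed 5′ to 3′.
Tie1: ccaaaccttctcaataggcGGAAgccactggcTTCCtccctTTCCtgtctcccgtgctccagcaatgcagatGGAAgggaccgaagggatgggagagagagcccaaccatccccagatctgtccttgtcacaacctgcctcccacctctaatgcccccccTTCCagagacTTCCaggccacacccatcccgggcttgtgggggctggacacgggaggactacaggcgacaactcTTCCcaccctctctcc
Apln: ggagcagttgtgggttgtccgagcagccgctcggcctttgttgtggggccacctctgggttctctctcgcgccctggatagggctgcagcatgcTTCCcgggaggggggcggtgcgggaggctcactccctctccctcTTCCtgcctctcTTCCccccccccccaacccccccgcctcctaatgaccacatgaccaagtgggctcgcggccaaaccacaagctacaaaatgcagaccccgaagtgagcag

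The Tie1 window held 7 GGAA cores, and 3.82% of the 32851 windows of this length in the table held as many or more. The Apln window held 3, and 54.7% of windows held as many. The Tek window held 2 (76.8% of windows), but 203 of its 250 bases lie inside the annotated gene, so it is not shown. The hypoxia response cores ACGTG and GCGTG were searched on both strands and were not in these 3 windows. ACGTG was found in 16.6% of all windows, GCGTG in 28.2%, and either in 38.6%. The searched motifs do not overlap in these windows, and a match of letters is not a binding site.

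None of the 6 genes passed the test between metastatic and primary tumours, and for each of them the groups overlapped. What the genes had in common was the direction by mouse. In all 6 the metastatic minus primary difference of mouse C1M3 had the opposite sign to that of C1M5 and of C2M3. This was also seen in 31.4% of all genes, and Angpt1 was a dim signal. Relative to the receptor genes used below as a gauge of dim signal, Apln lost this pattern and Angpt2 showed it in reverse. Apln and Angpt2 were higher in the metastatic than in the primary tumour of C1M5 and C2M3 and lower in C1M3, while Aplnr, Tek, Tie1 and Angpt1 were the reverse. The widest spreads were among primary tumours: Apln ranged over 9.68-fold and Aplnr over 7.96-fold between the 3 of them, with Apln highest where Aplnr was lowest. That lowest Aplnr value was a dim signal.

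The test was limma on log2 intensities with tissue as its only term, with Benjamini-Hochberg adjustment over all genes. With a threshold of 0.05 it called 0 of 30141 genes (0%), the smallest adjusted value being 0.407 in limma. Before adjustment 868 genes were under 0.05 and higher in metastases (2.88%) and 402 were under it and lower (1.33%), with none of the 6 genes among them. With each array centred on its median, these counts became 455 higher and 1129 lower, and the 6 genes kept their signs. Of the 6 genes 2 had a higher mean in metastases, against 55% of all genes, and 4 a lower one, against 43.9%. None of the 6 was higher in the metastasis of all 3 mice (11.1% of genes) or lower in all 3 (8.64%), and none had groups apart with the metastases above (4.8%) or below (2.84%). Of all genes, 31.4% showed C1M3 against both other mice, 10.6% showed C1M5 and 11.4% showed C2M3 in that position. For Apln and Angpt2, 2 of the 6 genes, that was the more common direction, seen in 23.1% of genes. The direction of the other 4 was seen in 8.35% of genes. Counting this pattern was chosen after the values were seen. The same 3 mice gave both groups, and the test, with tissue as its only term, does not use that pairing. Precision is limited by how many arrays there are.

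**Figure D1:**
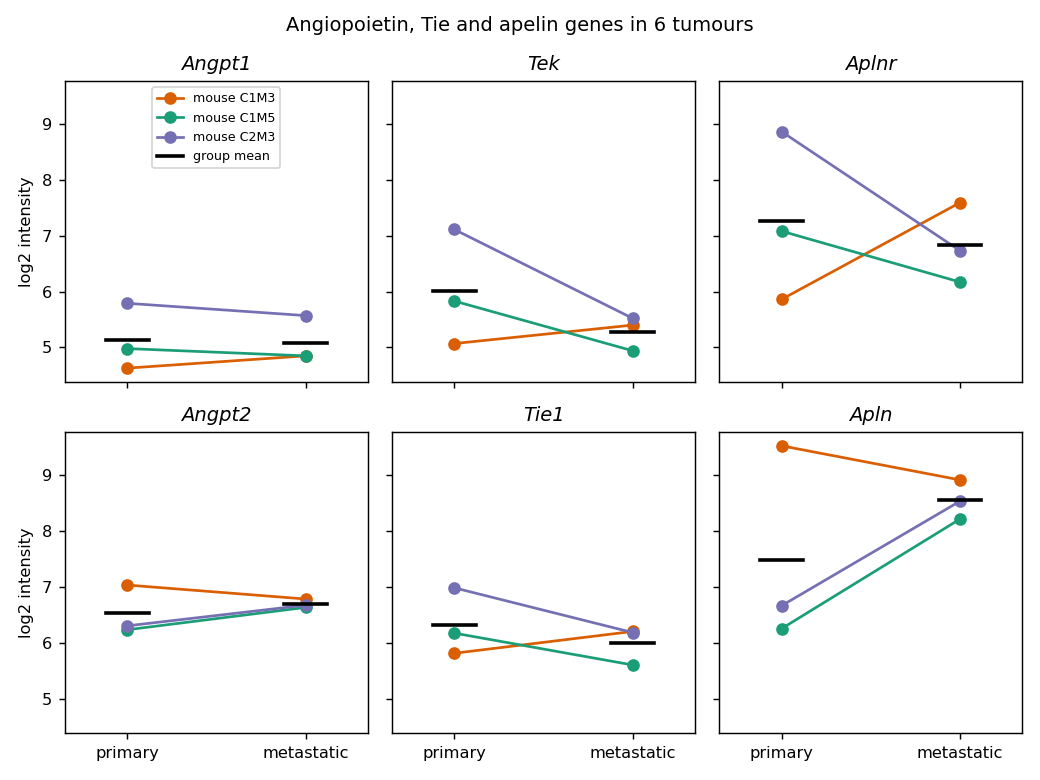
Log2 intensity of the 6 genes (vertical axis, shared) in primary and metastatic tumours (horizontal axis), with a line joining the 2 tumours of each of 3 mice and a black bar at the group mean. The line of C1M3 runs against the other 2 in every panel, and Apln spans 6.25 to 9.52 in primary tumours but 8.21 to 8.91 in metastatic ones.

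Among the ligands of Tek, Angpt2 read 7.03, 6.23 and 6.30 in primary tumours and 6.78, 6.63 and 6.67 in metastases. Its highest and lowest values were both in primary tumours, and the 3 metastatic values lay within 0.15 of each other between them. The group means were 6.52 ± 0.44 (SD, n = 3) and 6.69 ± 0.08, a group difference of 0.17 (moderated SE 0.23, limma adjusted p = 0.863). By mouse, the difference was -0.25 in C1M3, 0.40 in C1M5 and 0.37 in C2M3. With the C1M3 primary array left out the mean difference of Angpt2 was 0.43 (limma adjusted p = 0.38), and without that of C1M5 it was 0.03.

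Angpt1 read 4.63, 4.98 and 5.79 in primary tumours and 4.85, 4.85 and 5.57 in metastases. Both tumours of C2M3 were the highest, whichever the tissue. The difference between the groups was -0.05 (SE 0.38, limma adjusted p = 0.99), with 0.22, -0.13 and -0.22 in the same order of mice. Angpt1 was a dim signal. In only 2 of 6 arrays, the primary tumours of C1M5 and C2M3, did it lie above the 95th percentile of 1717 olfactory and vomeronasal receptor genes of the same array. These receptor genes belong to sensory neurons and serve here as a gauge of dim signal, since the value table has no detection calls.

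The gauge itself moved between arrays. Its 95th percentile was 5.85, 4.87 and 4.78 in primary tumours and 5.03, 5.74 and 6.11 in metastases, so that it fell from primary to metastasis in C1M3 alone. Angpt2, Apln and Aplnr lay above it in all 6 arrays, Tie1 in 4 and Tek in 3. Apln exceeded it by 3.68 and 3.88 log2 units in the primary and metastatic tumours of C1M3, by 1.38 and 1.88 in the other primary tumours and by 2.47 and 2.42 in their metastatic tumours. On this scale Apln was thus higher in the metastasis of every mouse. Angpt2 exceeded the gauge by 1.18, 1.37 and 1.53 in primary tumours and by 1.75, 0.89 and 0.57 in metastases. Its direction was thus reversed in every mouse, while Angpt1, Tek, Tie1 and Aplnr kept theirs. With the mean receptor level of each array as a covariate, the metastatic minus primary difference was 0.56 for Apln and 0.05 for Angpt2.

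**Figure D2:**
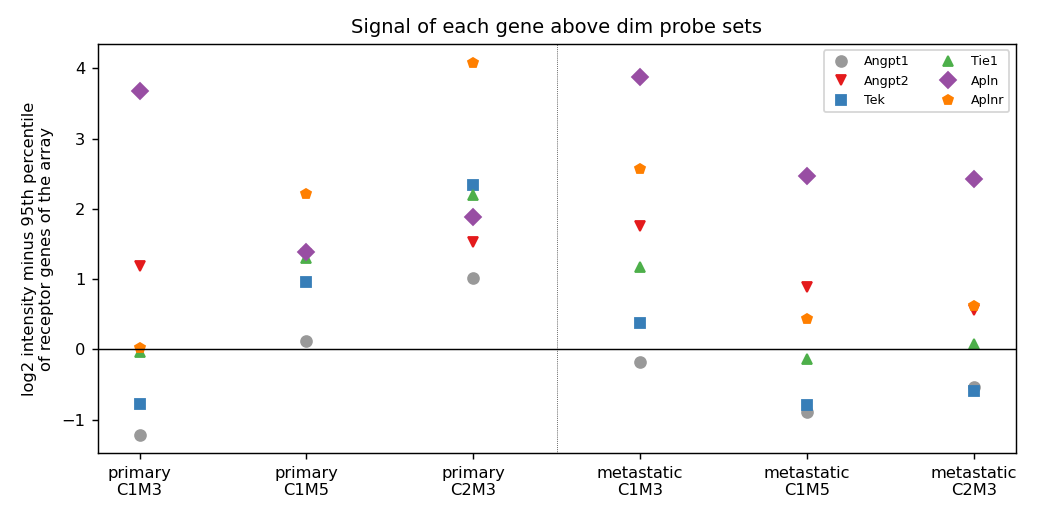
Log2 intensity of each gene minus the 95th percentile of receptor genes in the same array (vertical axis), for the 6 tumours (horizontal axis). Apln, Angpt2 and Aplnr lie above 0 in all 6 arrays, with Aplnr at 0.02 in the primary tumour of C1M3, whereas Angpt1 and Tek lie below 0 in that tumour and in the C1M5 and C2M3 metastases.

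Tek, the angiopoietin receptor, read 5.07, 5.83 and 7.11 in primary tumours and 5.40, 4.94 and 5.52 in metastases. The primary tumour of C2M3 stood highest, apart from every other array, and the primary tumour of C1M3 lay within the metastatic values. The group means were 6.01 ± 1.03 (SD, n = 3) and 5.28 ± 0.30. Their difference of -0.72 (SE 0.56, limma adjusted p = 0.843) was made up of 0.32 in C1M3, -0.89 in C1M5 and -1.59 in C2M3. Dropping the C1M3 primary array gave -1.19, and dropping the C2M3 one gave -0.17.

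Tie1, the partner receptor, followed a like course with a smaller span. It read 5.81, 6.17 and 6.98 in primary tumours and 6.20, 5.60 and 6.18 in metastases. The difference was -0.33 (SE 0.36, limma adjusted p = 0.844), with 0.39, -0.57 and -0.80 by mouse. Without the primary tumour of C2M3 the mean difference of Tie1 was 0.0020, without that of C1M3 it was -0.58, and without the metastatic tumour of C1M5 it was -0.13.

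Apln, the apelin ligand gene, had the widest mean difference of the 6 genes. It read 9.52, 6.25 and 6.66 in primary tumours and 8.91, 8.21 and 8.53 in metastases. The primary tumours of C1M5 and C2M3 were low, and the primary tumour of C1M3 was higher than all 3 metastatic tumours. The group means were 7.48 ± 1.78 (SD, n = 3) and 8.55 ± 0.35, a group difference of 1.07 or 2.10-fold (SE 0.94, limma adjusted p = 0.843). A mean difference of at least 2-fold upward was found in 1.61% of all genes and downward in 0.567%.

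Within mice Apln was 3.89-fold higher in the metastatic tumour of C1M5, 3.66-fold higher in that of C2M3, and 1.53-fold lower in that of C1M3. With the C1M3 primary array left out the mean difference was 2.10 (SE 0.27, limma unadjusted p = 0.00176, adjusted p = 0.357). That array holds the highest Apln value, so leaving it out raises the difference. Without it 1930 genes were higher at an unadjusted p under 0.05 in limma, against 868 with all arrays. The mean difference of Apln was 1.92 without both tumours of C1M3 (limma adjusted p = 0.187), 0.46 without the primary tumour of C1M5 and 0.66 without that of C2M3. With the mouse as a block the difference of 1.07 had an SE of 0.69 and an adjusted p of 0.841 in limma.

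Aplnr, the apelin receptor gene, read 5.86, 7.08 and 8.86 in primary tumours and 7.59, 6.17 and 6.73 in metastases. The primary tumour of C1M3 was the lowest of the 6 arrays and that of C2M3 the highest. The difference between groups was -0.44 (SE 0.86, limma adjusted p = 0.909), with 1.73, -0.91 and -2.12 by mouse. Within mice this was 3.31-fold higher in the metastatic tumour of C1M3 and 4.36-fold lower in that of C2M3. The fold in C1M3 rests on a primary value that lay only 0.02 log2 units above the receptor gauge. The mean difference turned to 0.36 without the primary tumour of C2M3, was -1.14 without that of C1M3 and was -0.11 without the metastatic tumour of C1M5.

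Ligand and receptor of the apelin system thus changed unequally among the primary tumours. Apln minus Aplnr, on the log2 scale within an array, was 3.66, -0.83 and -2.20 in primary tumours and 1.32, 2.04 and 1.80 in metastases. This difference of 2 probe sets shows unequal change between arrays and not which RNA was more abundant. It spanned 5.86 log2 units among primary tumours, and the 3 metastatic tumours were alike to within an SD of 0.37. The value of 3.66 rests on a dim Aplnr signal, only 0.02 above the receptor gauge. The same difference of Angpt2 minus Angpt1 was 2.40, 1.26 and 0.51 in primary tumours and 1.93, 1.78 and 1.10 in metastases, so that in both groups it was highest in C1M3 and lowest in C2M3. Angpt1 lay above the receptor gauge in only 2 of the 6 arrays, and in neither tumour of C1M3. This order of mice therefore rests on a dim signal.

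**Figure D3:**
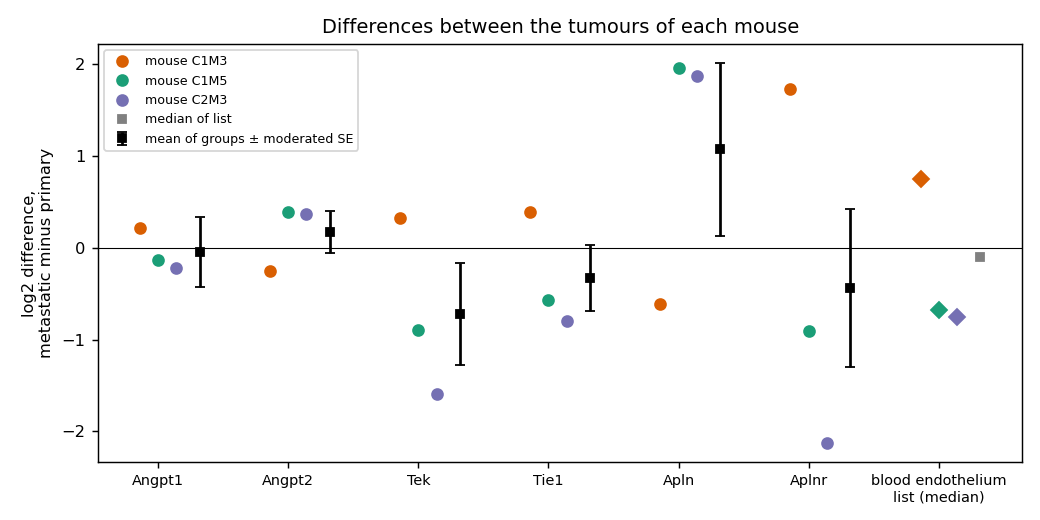
Metastatic minus primary log2 difference (vertical axis) of each gene in 3 mice (coloured points), with the difference of group means ± moderated SE (black squares), and the median of the blood endothelium list by mouse (diamonds) and between groups (grey square). Every gene has C1M3 on the other side of 0 from C1M5 and C2M3, and Aplnr, Tek, Tie1 and Angpt1 share their signs with the endothelial list.

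The receptors were set beside other genes of blood endothelium. Of 20 listed markers 19 were measured, and 10 lay above the receptor gauge in all arrays, among them the junction genes Pecam1 and Cdh5 and the VEGF receptor gene Kdr. Cdh5, which encodes VE-cadherin, read 7.30, 8.84 and 10.94 in primary tumours and 8.86, 6.85 and 8.84 in metastases. The list mean was 5.87, 6.62 and 7.55 in primary tumours and 6.73, 5.96 and 6.57 in metastases. No marker was called, 16 had a lower and 3 a higher mean in metastatic tumours, and the median difference was -0.10, against 0.02 over all genes. This median rested on single arrays, being -0.62 without the C1M3 primary tumour and 0.20 without the C2M3 one. By mouse the median was 0.75 in C1M3, -0.68 in C1M5 and -0.76 in C2M3, and 12 of the 19 were higher in C1M3 and lower in both other mice, against 8.35% of all genes. In bulk tumours, fewer endothelial cells and less RNA per endothelial cell cannot be told apart.

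Aplnr ranked the 6 tumours in the same order as the endothelial list mean, from the primary tumour of C2M3 down to that of C1M3. Tie1 shared the list's highest tumour and its lowest pair. Relative to the list mean, Tie1 moved over 0.50 log2 units in all across the 6 arrays, Tek over 0.90, Aplnr over 1.32 and Angpt1 over 0.89, while Angpt2 moved over 2.40 and Apln over 4.54. Tie1 minus the list mean was -0.06, -0.45 and -0.57 in primary tumours and -0.54, -0.35 and -0.39 in metastases. The Tie1 probe set thus stayed nearer to the list than those of Angpt2 and Apln did. The list mean includes flat markers such as Sox17 (4.25 to 4.27), and it moved less than Pecam1, which ran from 6.58 to 9.50. A gene of small span such as Tie1 can therefore stay near it. These ranges do not rank Tie1 above Aplnr as a follower of vessel genes.

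Tek minus the list mean was -0.80, -0.79 and -0.44 in primary tumours and -1.34, -1.02 and -1.06 in metastases. Within mice the metastasis was lower by 0.54, 0.23 and 0.62, and the groups did not overlap. Measured against the same list, 0.733% of all genes were lower in every mouse and 0.295% were lower without overlap. The list mean was itself higher in the metastasis of C1M3 and lower in those of C1M5 and C2M3. A gene that stays level therefore reads higher in C1M5 and C2M3, so these shares are small from the outset. On this scale Cldn5 of the same list, Pik3r1, Gnai1 and the adipocyte genes Adipoq and Retn were also lower in every mouse. Tek was singled out from the 6 genes after these values were seen. Tek lay under the receptor gauge in 3 of the 6 arrays, where a dim signal may not follow the amount of RNA, and no test was made.

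Apln minus the list mean was 3.65, -0.37 and -0.89 in primary tumours and 2.18, 2.25 and 1.95 in metastases. The 3 metastases lay close together on this scale, with an SD of 0.15 against 2.49 in primary tumours, which lay on both sides of them. Angpt2 minus the list mean was 1.15, -0.39 and -1.25 in primary tumours and 0.05, 0.67 and 0.10 in metastases.

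**Figure D4:**
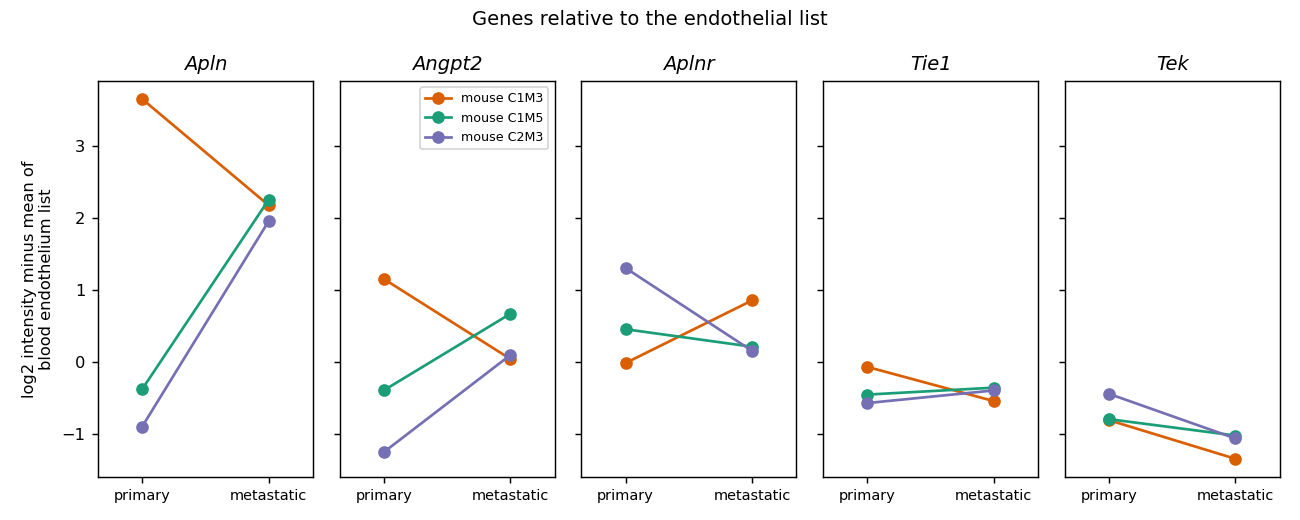
Log2 intensity of 5 genes minus the mean of the 19 measured blood endothelium markers in the same array (vertical axis), in primary and metastatic tumours (horizontal axis) of 3 mice. Tie1 spans 0.50 log2 units over the 6 arrays and Apln 4.54, and Tek is lower in the metastatic tumour of each mouse.

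Genes whose 6 values lay nearest to those of each receptor, after subtraction of the mean over arrays, were sought among 15069 other genes with a mean above the median. The measure is the root mean square distance in log2 units over the 6 arrays, which come from 3 mice, and it is a description. For Aplnr the nearest were Mcam (distance 0.06), an adhesion molecule of endothelium and pericytes, then the endothelial genes Eng (0.20), Pecam1 (0.21) and Mmrn2 (0.23), and the matrix gene Postn (0.27). For comparison, Aplnr itself moved by 0.99 on this measure. For Tie1, which moved by 0.43, they were Fscn1 (0.08), Cdh13 (0.09), Pitpnm2 (0.10), Mrvi1 (0.12) and Exoc3l (0.12).

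For Tek, which moved by 0.72, the nearest were Smpdl3a (0.08), Grb10 (0.10), the phosphoinositide 3-kinase subunit gene Pik3r1 (0.11), Ldb2 (0.12) and the lipoprotein lipase gene Lpl (0.14). Tie1 was at a distance of 0.32 from Tek and Aplnr at 0.45. Predicted, clone-named and small RNA genes and receptor gene families were left unnamed. For Angpt1, which moved by 0.42, the nearest named genes were the lymphocyte gene Ms4a4b (0.05), Fgl2 (0.08), Gstt1 (0.11), Fcgrt (0.12) and Tagap1 (0.13). Like Angpt1, Ms4a4b lay above the receptor gauge only in the primary tumours of C1M5 and C2M3. The nearness of these genes is thus one of dim signals. For Apln, which moved by 1.18, most of the nearest genes were of the unnamed kinds. Its nearest named genes ranked between 5 and 73 among all, at wider distances than for the other genes, and were mt-Tk, a mitochondrial tRNA gene (0.57), Zfp640 (0.66), Kcnd2 (0.67), Igfbp2 (0.68) and Podxl (0.70). Angpt2 spanned 0.80 log2 units, under the 1 required for this search.

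Lists of other cell types were set beside the 6 genes. The adipocyte list (9 of 10 genes measured, none called) had means of 6.03, 9.70 and 11.90 in primary tumours and 6.22, 6.14 and 5.74 in metastases. Its high arrays were the 2 primary tumours in which Apln was low, and Tek was highest in those same 2, while in the metastasis of C1M3, where Aplnr and Tie1 were second highest, the list was not raised. The adiponectin gene Adipoq was at 10.59 and 13.21 there and between 5.75 and 6.09 in the other arrays. The part of fat in these values was not tested.

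The pericyte list (12 of 12 measured) had means of 5.99, 7.03 and 7.60 in primary tumours and 6.95, 6.52 and 6.81 in metastases, with none called, 6 higher and 6 lower and a median of -0.02, which was -0.26 without the C1M3 primary array and 0.25 without the C2M3 one. Pdgfrb, the pericyte receptor for platelet-derived growth factor, was at 6.60, 10.50 and 10.69 in primary tumours and 9.80, 9.26 and 9.54 in metastases. Its low array was the primary tumour of C1M3, where Angpt1 was also lowest. Macrophage genes (10 of 10 measured, none called, 8 higher and 2 lower, median 0.58) had means of 6.15, 8.01 and 8.40 in primary tumours and 7.60, 7.89 and 8.42 in metastases. The macrophage median turned to -0.14 without the C1M3 primary array. Fibroblast genes (9 of 10 measured, none called, 3 higher and 6 lower) had their lowest mean in the same primary tumour, 6.69 against 7.57 to 9.16.

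The primary tumour of C1M3 was thus lowest in the endothelial, pericyte, fibroblast, macrophage and lymphatic lists while being highest in Apln and Angpt2. The lymphatic list (7 of 8 measured, none called, 1 higher and 6 lower) was at 5.71 there and at 5.91 to 6.76 elsewhere. Mesothelial and tumour genes (8 of 8 measured, none called, 4 higher and 4 lower) showed no such pattern, with list means of 11.07, 12.25 and 11.05 in primary tumours and 10.72, 12.36 and 10.97 in metastases. Among them the keratin genes Krt8 and Krt18 and the transcription factor gene Wt1 lay above the gauge in all arrays. Ovarian genes (10 of 12 measured, none called, 3 higher and 7 lower) had list means between 5.61 and 6.74. Platelet genes (6 of 8 measured, none called, 4 higher and 2 lower) reached their highest list mean, 6.06, in the primary tumour of C2M3. For red blood cells 2 of 6 genes were measured, and Alas2 was at 13.18 in the primary tumour of C2M3, where Tek and Aplnr were highest, against 6.72 to 9.58 elsewhere. The part of these cell types in the results was not tested.

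**Figure D5:**
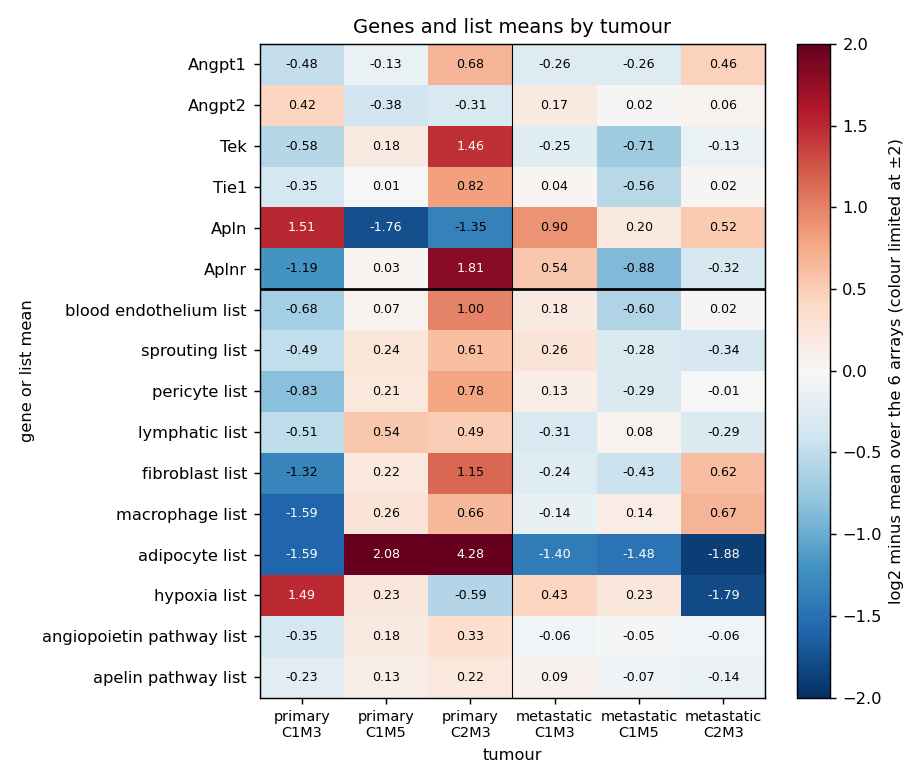
Log2 value minus the mean over the 6 arrays (colour and printed number, colour limited at 2 in each direction) for the 6 genes and for 10 list means (rows) in each tumour (columns). In the C2M3 primary tumour Aplnr, Tek and Tie1 and the endothelial and pericyte lists are all above their means, in the C1M3 metastasis Tek is at -0.25 and the endothelial list at 0.18, and Apln is at 1.51 in the primary tumour of C1M3, where those lists are at -0.68 and -0.83.

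Apln, Angpt2 and Vegfa respond to low oxygen in many cells, so the hypoxia list was set beside them. All 14 genes were measured, none was called, and all 14 averaged lower in metastases, against 43.9% of all genes, with a median of -0.65. By mouse, 14 were lower in the metastasis of C1M3 and 11 in that of C2M3, while in C1M5 9 were higher and 3 lower, with a median of 0.07. The list mean was 11.18, 9.93 and 9.11 in primary tumours and 10.12, 9.92 and 7.90 in metastases. Apln and the list were both highest in the primary tumour of C1M3 and second highest in the metastatic tumour of that mouse. In C1M5 the list mean was nearly the same in both tumours while Apln was 3.89-fold higher in the metastasis. In C2M3 the list was lowest in the metastasis, where Apln was 3.66-fold above the primary tumour. Dropping the C1M3 primary array gave a list median of 0.04, dropping the C2M3 metastasis gave 0.06, and dropping the C2M3 primary array gave -1.15.

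Vegfa, the gene of the growth factor that the ID8-VEGF cells produce, read 14.99, 14.09 and 12.92 in primary tumours and 14.51, 14.20 and 10.06 in metastases. Whether this signal includes the added growth factor was not tested. Vegfa, although counted in the hypoxia list, can therefore not be taken here as a measure of low oxygen. The prolyl hydroxylase gene Egln3 was at 15.92, 15.61 and 12.01 in primary tumours and 15.05, 15.63 and 9.68 in metastases. Both were lowest in the metastatic tumour of C2M3, which was not the case for any of the 6 angiogenic genes. Adm, which encodes the vasodilator adrenomedullin, differed by -2.50 (SE 0.64, limma adjusted p = 0.843), with the metastasis below the primary tumour in every mouse, so that its direction in C1M5 and C2M3 was opposite to that of Apln.

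Among other genes of the angiopoietin pathway, all 20 listed were measured and none was called. Of them 10 had a lower and 8 a higher mean in metastases, 2 had equal values in all arrays, and the median difference was -0.01. Leaving out single arrays gave a median of -0.07 (C1M3 primary) to 0 (C2M3 primary). Before adjustment 1 of the 20 was under 0.05 and higher, against 2.88% of all genes, the integrin subunit gene Itgb1 with 0.28 (limma unadjusted p = 0.0471). Ptprb encodes VE-PTP, the endothelial phosphatase that restrains Tek. It was at 5.59, 7.06 and 8.75 in primary tumours and 6.80, 6.09 and 6.76 in metastases, with a group difference of -0.58 (SE 0.84), and so was highest in the same tumour as Tek. Svep1, a large matrix protein that has been reported to bind Tie1, had the widest difference of the list, -1.26 (SE 1.09), with values of 4.97, 7.97 and 9.02 in primary and no more than 6.17 in metastases. Pik3r1, a subunit of the kinase that acts after Tek, differed by -0.69 (SE 0.49).

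The third angiopoietin gene, Angpt4, and the related Angptl1 were under the receptor gauge in all 6 arrays, with Angpt4 between 4.36 and 4.67. Foxo1, the transcription factor that angiopoietin signalling restrains and that drives Angpt2, was at 7.61, 8.36 and 8.05 in primary tumours and 7.80, 8.02 and 7.48 in metastases. Its highest array was the primary tumour of C1M5, in which Angpt2 was lowest. Akt1, the kinase between Tek and Foxo1, was deposited with an identical value of 7.37 in all 6 arrays, as was Grb7, an adaptor gene. In all, 331 of the 30141 genes had 6 identical values, and nothing can be read from them about a difference.

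Of 19 listed apelin pathway genes 15 were measured, none was called, 9 had a lower and 6 a higher mean in metastatic tumours, and the median difference was -0.06. Leaving out the C2M3 metastasis turned this median to 0.08, and leaving out that of C1M3 gave -0.18. Before adjustment 2 of the 15 were under 0.05, both lower, against 1.33% of all genes. They are G protein subunit genes, and the other listed subunit genes were at 0.05 (Gnai3, SE 0.06) and -0.06 (Gna13, SE 0.26). Gnai1 was at 7.94, 7.60 and 9.72 in primary tumours and 6.87, 6.64 and 6.65 in metastases, a group difference of -1.70 (SE 0.59, limma adjusted p = 0.843), and the groups did not overlap. Gnai2 was at 13.11, 13.04 and 13.19 in primary tumours and 12.70, 12.90 and 12.89 in metastases, a group difference of -0.28 (SE 0.08, limma adjusted p = 0.843), again without overlap. Such a separation was found in 2.84% of all genes. Mme, which encodes neprilysin, a protease that degrades apelin, was at 8.09, 9.73 and 9.55 in primary tumours and 10.32, 9.55 and 10.88 in metastases, a group difference of 1.13 (SE 0.58).

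The sprouting list (12 of 12 measured, none called, 3 higher and 9 lower, median -0.05, but -0.39 without the C1M3 primary array and 0.08 without the C2M3 one) holds genes of tip cells, which are also a source of apelin. The tip cell gene Esm1 was at 5.93, 5.51 and 5.19 in primary tumours and 6.47, 5.63 and 5.35 in metastases. Like Apln, it was higher in both tumours of C1M3 than in the other primary tumours, but its metastatic values in C1M5 and C2M3 lay within 0.16 of the primary ones. Those metastatic values of Esm1 were under the receptor gauge of their arrays (5.74 and 6.11), where a dim signal may not follow the amount of RNA. Dll4, the Notch ligand of tip cells, was at 6.37, 6.63 and 6.79 in primary tumours and 7.17, 6.12 and 6.77 in metastases. Plvap, a protein of fenestrated endothelium, differed by -0.76 (SE 0.75) and Cxcr4 by 1.24 (SE 0.92).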

How the data were processed

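RNA of 6 tumours was measured on whole-transcriptome arrays, 1 per tumour. The authors deposited log2 intensities, a value for each probe set and array. Per the submitters' processing notes they were made with RMA and Transcriptome Analysis Console, whose versions and genome build are not given in the sources used here. RMA corrects background, quantile-normalizes arrays and summarises probes, so a change shared by most genes tends to be removed. Array medians over the genes used here still ran from 4.90 (C1M5 primary) to 5.15 (C2M3 metastasis). Of 65956 non-control probe sets, 30604 had 1 symbol, 2146 several and 33206 none in the annotation table used. The probe set with the highest mean was kept, which gave 30141 genes, with no filter. Symbols of 813 probe sets were updated through Entrez identifiers.

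The tissues were compared by a two-sided test in limma 3.58.1 (R 4.3.3), and p-values were adjusted by the Benjamini-Hochberg method over the 30141 genes with a threshold of 0.05. The fit was tested on simulated data. Tumours are paired by the donor label. Deviations from group means of the 2 tumours of a mouse correlated across genes with r = -0.05, 0.35 and 0.07 for C1M3, C1M5 and C2M3. The highest r of each primary tumour with the metastasis of another mouse was 0.13, -0.02 and 0.09. For C1M3 and C2M3 the own metastasis was thus no nearer than that of another mouse. The differences by mouse rest on the titles and donor labels. Lists were described by counts and medians, without a list test. Named were the 6 genes, up to 3 genes per list by size of difference, the 5 nearest genes by profile, and fixed markers; other list genes named as examples were chosen after their values were seen. The genes and lists were chosen with earlier results of these data known. Alternatives were the mouse block, centring, a receptor gene covariate, a filter, array weights, an intensity trend, the mean of probe sets, and leaving out arrays or mice.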

Additional observations from a re-analysis of the deposited data

How the results depend on the processing

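No gene was called in limma in any of the 16 alternatives. The smallest adjusted p over them was 0.174, without both tumours of mouse C1M3. The differences of Angpt2, Tek and Apln kept their sign in all of them. With the mouse as replicate block the member differences were the same, with adjusted p between 0.841 and 0.933, and the block changed no call. With the receptor gene level as a covariate, Angpt1 turned to 0.031 and Aplnr to 0.13. Without mouse C2M3, Angpt1 was 0.044 and Aplnr 0.41. Leaving out single arrays gave -0.30 to 0.29 for Angpt1, 0.03 to 0.43 for Angpt2, -1.19 to -0.17 for Tek, -0.58 to 0.0020 for Tie1, 0.46 to 2.10 for Apln and -1.14 to 0.36 for Aplnr.

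At an unadjusted p under 0.05 the 868 higher and 402 lower genes became 455 and 1129 with each array centred on its median, which moved the median difference of all genes by -0.11 and left the signs of the 6 genes as they were. They became 398 and 200 among genes above the median level (15070 genes tested), 2181 and 1001 with array weights, 3186 and 905 without mouse C1M3, 507 and 583 without mouse C2M3, where lower genes were the more numerous, and 819 lower with the receptor covariate, under which 54.6% of such genes were higher. Leaving out single arrays gave 476 to 1930 higher and 204 to 859 lower genes. Apart from the filter, which tests fewer genes, the cause of these shifts was not tested.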
